A study of Mus musculus with 4 samples.

Results

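The genes described here are 40 listed genes of the heat shock response, the endoplasmic reticulum (ER) stress response and protein folding, in mouse macrophages with and without the adaptor protein DAP12. They were taken by gene symbol, and each was read by its brightest probe set assigned to 1 gene. Of the 40, 38 had such a probe set, out of 18193 genes on the array, and all 38 passed the level floor that left 12767 genes for comparison. Hsf1 and Hsp90ab1 are listed but were not analysed here. The 38 fall into 12 cytosolic heat shock genes, 3 mitochondrial chaperones, 17 ER chaperones with their ER stress regulators, and 6 genes of the ATF4 branch.

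The cells were thioglycolate-elicited peritoneal macrophages, drawn into the abdominal cavity by an irritant, with a treatment step of 18 hours on slides. The labels give no strain, age or number of mice, and no way in which Dap12 was deleted. There were 4 groups of 1 array each: Dap12-KO with interleukin-4 (IL-4), wild type (WT) with IL-4, Dap12-KO untreated and WT untreated. Dap12 is the gene Tyrobp, whose product signals for several myeloid receptors, and IL-4 drives alternative activation. The series asks what the loss of DAP12 does to expression at rest and in the response to IL-4.

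With 1 array per group there are no replicates, so a difference between 2 arrays is given as a value with no test, and the number of arrays limits its precision. Values are log2, and 2-fold is the threshold for the counts of genes. Tyrobp itself read 13.27 on the IL-4-exposed array labelled Dap12-KO against 14.13 in WT with IL-4, and 14.03 on the untreated array labelled Dap12-KO against 14.39 in WT. That signal does not bear out the label, and it would check nothing if the probes lie outside the deleted part, so every direction between genotypes rests on the labels. The IL-4 array labelled Dap12-KO was narrower than the others, with a middle 50% spanning 2.54 against 3.19 to 3.25 log2 units. Its median gene was at -0.39 against WT with IL-4 and at -0.40 against the untreated array labelled Dap12-KO, while the comparisons without it had medians of 0.03 and -0.03. Differences that use it are therefore read against the median of all genes, and values after cyclic loess, which puts the arrays on a common level trend, stand beside them. All 8 macrophage markers were above the floor on all 4 arrays. Of 5 plasma cell markers, Sdc1, Mzb1 and Prdm1 were above it on all 4 arrays, and Jchain and Tnfrsf17 on none. The B cell markers Cd79a, Cd79b and Ms4a1 were also above it on all 4 arrays, so other cell types are not excluded.

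Cells meet misfolded protein with separate programmes in separate compartments. In the cytosol the factor HSF1 induces HSP70, HSP90, HSP40 and their partners, which hold and refold proteins, and chaperonins do this in mitochondria. In the ER the sensors IRE1, ATF6 and PERK act through spliced XBP1, cleaved ATF6 and ATF4, and raise folding enzymes, degradation factors and, through ATF4, genes of amino acid supply. The same ATF4 arm answers amino acid shortage, so that branch is also known as the integrated stress response.

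**Figure D1:**
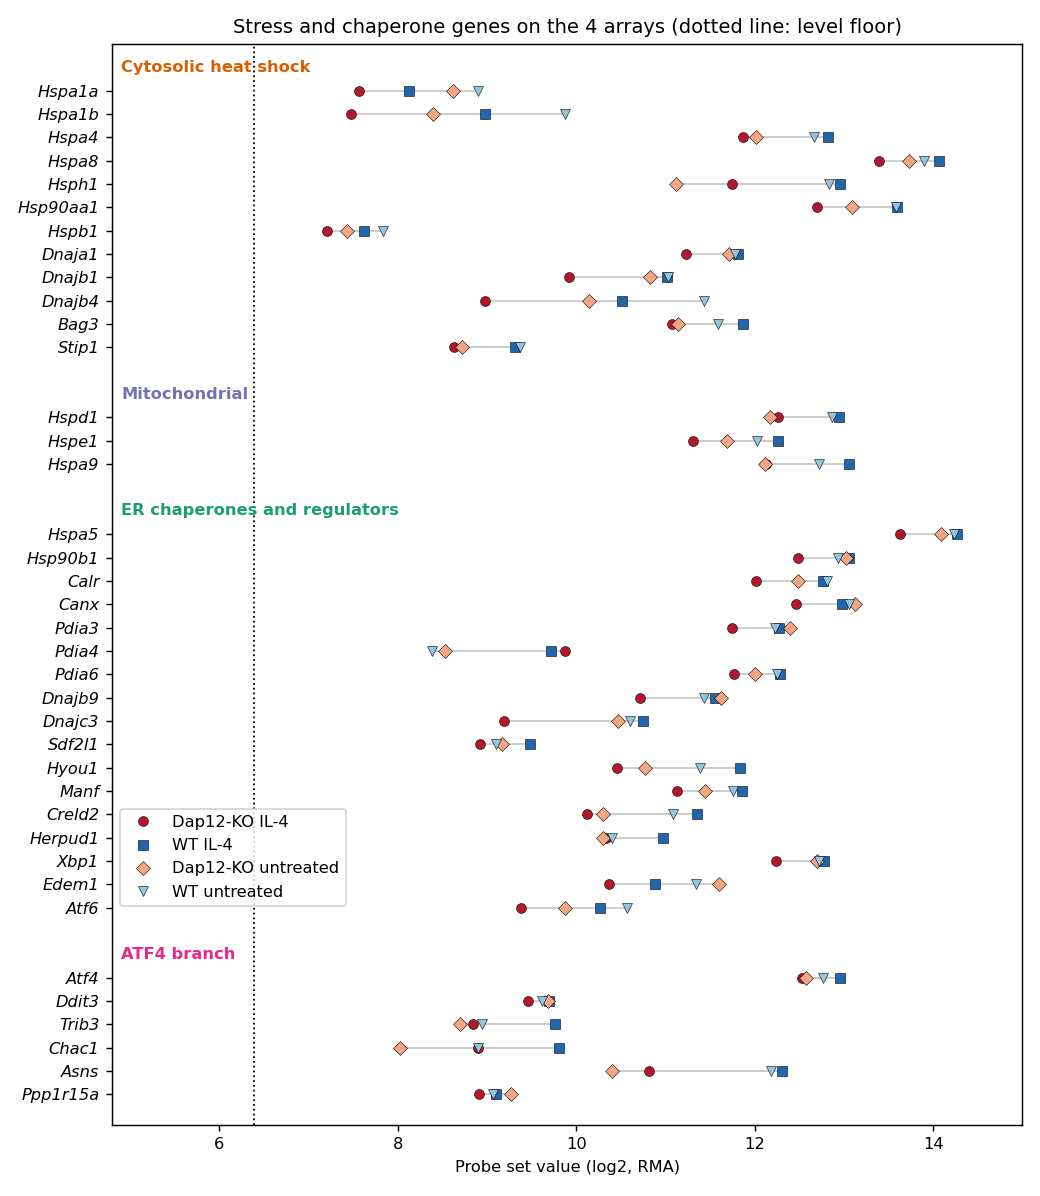
Log2 probe set value (horizontal axis) of the 38 genes on each of the 4 arrays, in their 4 branches, with the level floor as a dotted line. In the cytosolic branch both arrays labelled Dap12-KO lie to the left of the WT array of the same treatment for every gene, Pdia4 is the ER gene whose IL-4 arrays lie to the right of both untreated arrays by over 2-fold, and Asns splits by genotype label. Values of different genes are not comparable with each other.

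The cytosolic heat shock genes were lower on the arrays labelled Dap12-KO than in WT, by a wide margin in a few genes and slightly in most. Untreated, 12 of 12 were below WT (11 after cyclic loess, with Dnaja1 at 0.02), with a median of -0.47 where the median of all genes was 0.03, and 3 of 12 were lower at 2-fold, against a background of 3.41% of all genes lower. None was higher at 2-fold, against a background of 3.12%. Hsph1, the HSP110 that exchanges nucleotide for HSP70, was 3.27-fold lower, Hspa1b, an inducible HSP70, was 2.80-fold lower and Dnajb4, an HSP40 partner of HSP70, was 2.45-fold lower. With IL-4 the same 12 genes had a median of -0.85 where all genes had -0.39, and 4 of 12 were lower at 2-fold, against 17.6% of all genes lower and 10.9% higher. Genes at or above the 75th percentile of level, where most members lie, had a median of -0.62 and 23.2% lower in that comparison, and -0.05 and 4.94% untreated. After cyclic loess, which moves all genes to medians of 0.09 untreated and 0.13 with IL-4, the branch stood at -0.39 and -0.32, and Hspa1a, Dnaja1 and Stip1 were at 0.07, 0.05 and 0.04 with IL-4. In bulk samples like these, fewer cells of a type cannot be told apart from less RNA per cell. Over all 38 members 4 were lower at 2-fold untreated, and the same 4 with IL-4, when 8 were.

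Hsph1 (chr5:149616843-149636498, GRCm38.p6) read 11.75 on the IL-4-exposed array labelled Dap12-KO against 12.96 in WT with IL-4. Untreated it read 11.12 on the array labelled Dap12-KO against 12.83 in WT. Both WT arrays were thus above both others, and its second probe set gave the same picture, at -1.93 with IL-4 and -1.72 untreated. The differences of the brighter probe set were -1.21 and -1.71, and -0.64 and -1.62 after cyclic loess, so the untreated one kept 2-fold and the one with IL-4 did not.

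Hspa1b (chr17:34956429-34959238) read 7.48 on the IL-4-exposed array labelled Dap12-KO against 8.98 in WT with IL-4, and 8.39 on the untreated array labelled Dap12-KO against 9.87 in WT. It was 2.83-fold lower with IL-4 and 2.80-fold lower untreated. All 3 of its probe sets lay past 2-fold in both, between -1.75 and -1.35 with IL-4 and between -1.49 and -1.37 untreated, and after cyclic loess the brightest was at -0.81 and -1.40. Hspa1a, its neighbour on chromosome 17, read 7.57 and 8.13 with IL-4 and 8.62 and 8.90 untreated, each time on the array labelled Dap12-KO and in WT, which is less than 2-fold apart (-0.56 and -0.28). The 2 genes encode almost the same protein and their RefSeq promoters match at 296 of 300 positions, so reads of one by the probes of the other cannot be told apart here.

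Dnajb4 read 8.98 on the IL-4-exposed array labelled Dap12-KO against 10.51 in WT with IL-4, and 10.14 untreated against 11.43 in WT. Its other probe sets did not all follow: 1 gave -1.39 with IL-4 and -0.93 untreated, and a dim one gave 0.78 and -0.17. Dnajb1, another HSP40, read 9.92 on the IL-4-exposed array labelled Dap12-KO against 11.02 in WT with IL-4 (-1.10, or -0.41 after cyclic loess), but 10.83 against 11.03 untreated.

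The other cytosolic members stayed within 2-fold. Untreated, the largest of these differences were -0.65 for Stip1, the HOP protein that joins HSP70 to HSP90, and -0.64 for Hspa4, an HSP110 family member. Bag3, an HSP70 cochaperone, was at -0.45, the small heat shock protein Hspb1 at -0.42, the constitutive HSP70 Hspa8 at -0.17 and the HSP40 Dnaja1 at -0.08. Hsp90aa1, the inducible cytosolic HSP90, depended on the probe set. Its brightest gave -0.50 untreated and -0.90 with IL-4, whereas the next brightest gave -1.06 untreated and -1.34 with IL-4, and another -1.32 and -0.91. A dim one, near the floor, went the other way, at 0.16 and 0.54. Of the 3 Dnaja1 probe sets 1 was lower past 2-fold with IL-4, at 9.22 against 10.80 in WT with IL-4, where the brightest read 11.23 against 11.81.

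The mitochondrial chaperones were lower as well. Hspd1 (HSP60) read 12.26 on the IL-4-exposed array labelled Dap12-KO against 12.94 in WT with IL-4, and 12.17 untreated against 12.87 in WT. The mitochondrial HSP70 Hspa9 read 12.13 against 13.06 with IL-4 and 12.12 against 12.72 untreated, and Hspe1, the HSP10 lid of the HSP60 chamber, 11.31 against 12.26 and 11.69 against 12.03. All 3 were lower on both arrays labelled Dap12-KO, none by 2-fold, with a median of -0.60 untreated and -0.93 with IL-4. After cyclic loess the medians were -0.52 and -0.34. Among the 5 Hspa9 probe sets 2 dim ones went the other way, by 0.96 and 1.89 with IL-4 and by 0.18 and 0.32 untreated.

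**Figure D2:**
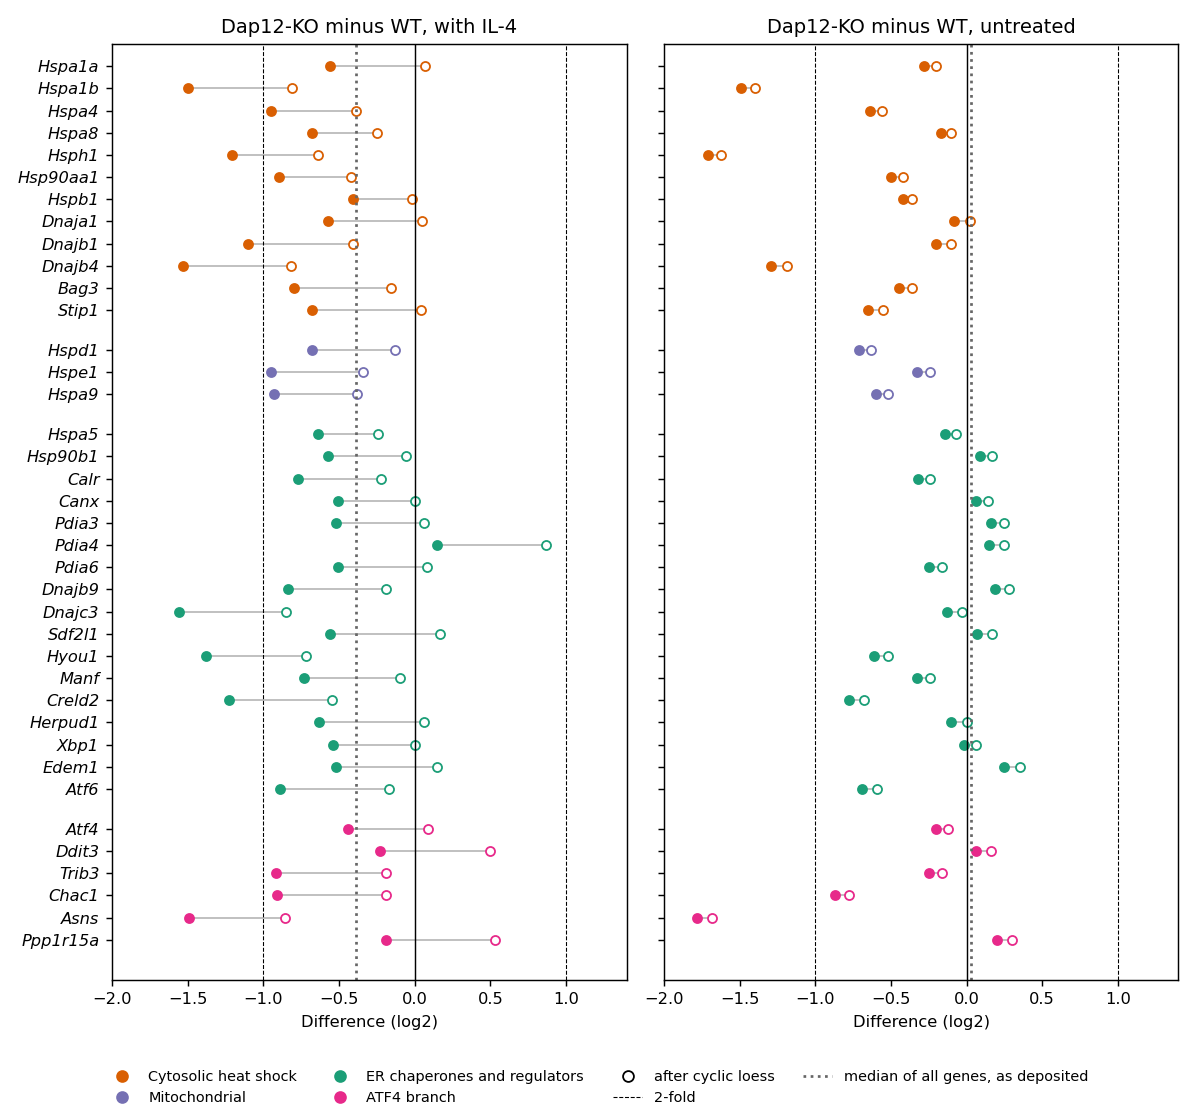
Log2 difference of the array labelled Dap12-KO minus WT for each of the 38 genes, with IL-4 at left and untreated at right. Filled points are deposited values, open points those after cyclic loess, dashed lines mark 2-fold and the dotted line is the median of all genes as deposited. Untreated, Hsph1, Hspa1b, Dnajb4 and Asns lie past 2-fold lower on both scales, and the ER genes straddle 0.

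Promoters of the heat shock genes are shown because the 4 largest untreated differences fall in genes with a heat shock element match, and the promoters were picked with those differences known. RefSeq promoter sequences (GRCm38.p6, from 250 bases before to 50 after a start) were found for 32 of the 38 genes. A heat shock element was searched as inverted GAA units, GAANNTTC or TTCNNGAA, on both strands, and 3 units in a row as the stricter form, which contains the looser one. Capitals mark matches, and the first 3 stretches hold the 250 bases before the start. Hsph1 lies at chr5:149636337-149636586, minus strand, Hspa1b at chr17:34959239-34959488, minus strand, and Hspe1 at chr1:55087898-55088147, plus strand. The fourth line is the 3-unit element of Hsph1 just past its start, at chr5:149636288-149636300.
Hsph1: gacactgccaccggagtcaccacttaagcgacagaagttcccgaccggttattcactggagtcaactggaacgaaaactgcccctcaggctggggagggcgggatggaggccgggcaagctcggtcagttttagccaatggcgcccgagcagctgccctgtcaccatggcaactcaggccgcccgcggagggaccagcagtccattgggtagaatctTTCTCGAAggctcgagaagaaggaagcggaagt
Hspa1b: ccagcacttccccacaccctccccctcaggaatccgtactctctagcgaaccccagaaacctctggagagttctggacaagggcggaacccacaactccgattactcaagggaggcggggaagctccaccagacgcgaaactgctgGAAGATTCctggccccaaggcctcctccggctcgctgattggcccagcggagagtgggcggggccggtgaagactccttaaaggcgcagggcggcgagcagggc
Hspe1: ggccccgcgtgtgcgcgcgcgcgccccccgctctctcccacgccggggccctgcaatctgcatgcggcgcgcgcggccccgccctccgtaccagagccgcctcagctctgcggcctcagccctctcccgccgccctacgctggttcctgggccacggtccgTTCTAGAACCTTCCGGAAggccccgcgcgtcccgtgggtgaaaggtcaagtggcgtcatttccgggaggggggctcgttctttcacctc
Hsph1: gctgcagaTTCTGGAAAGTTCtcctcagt

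The 2-unit element was present in 7 of 10 cytosolic genes with a promoter, in 2 of 2 mitochondrial genes, in 0 of 14 ER genes and in 1 of 6 genes of the ATF4 branch, where 17.0% of all 27025 genes with a promoter had one. The 3-unit form was found in Hsph1, Hspd1 and Hspe1, against 0.662% of all genes. Hspd1 and Hspe1 face away from each other and share their element, at chr1:55088059-55088076. The 10 members with a 2-unit match were below WT in 10 of 10 cases on both arrays labelled Dap12-KO, with medians of -0.58 untreated and -0.88 with IL-4, except that after cyclic loess Dnaja1 was at 0.02 and 0.05 and Hspa1a at 0.07 with IL-4. Of all genes 47.3% were below WT untreated and 65.8% with IL-4, and the cytosolic genes without a match were below WT too. Among genes at or above the 75th percentile of level, where most members lie, 54.1% were below WT untreated and 86.3% with IL-4. Of the 10, 4 were lower at 2-fold untreated: Hsph1, Hspa1b, Dnajb4 and Asns. The match of Bag3 lies past its start. A match describes these letters only, and binding of HSF1 was not measured. Stip1, Hspa4 and Dnajb1, which also read lower, had no match, which says only that these letters are not in the window.

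**Figure D3:**
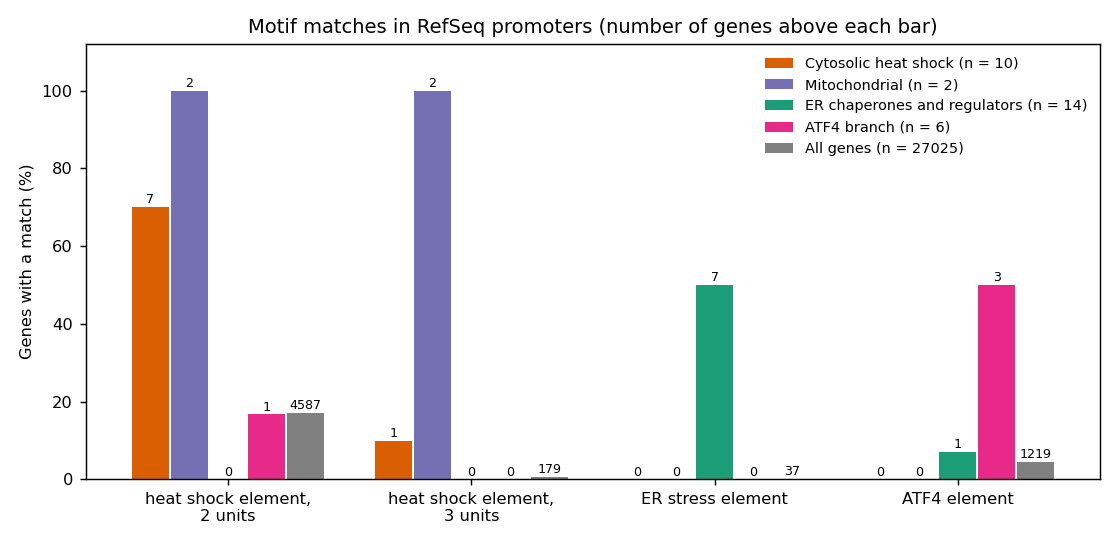
Percent of genes (vertical axis) with at least 1 match in their RefSeq promoters for each of 4 motif forms, by branch and for all genes with a promoter, with the number of matching genes above each bar. Heat shock elements concentrate in the cytosolic and mitochondrial bars (7 of 10 and 2 of 2), ER stress elements in the ER bar (7 of 14) and ATF4 elements in the ATF4 bar (3 of 6).

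The ER chaperones and their regulators differed little between untreated arrays. Of the 17, 10 were below WT and 7 above it on the untreated array labelled Dap12-KO, 0 were at 2-fold in either direction, and the median was -0.10 where all genes had 0.03. Hspa5 (BiP), the HSP70 of the ER and a standard readout of ER stress, read 13.63 on the IL-4-exposed array labelled Dap12-KO against 14.27 in WT with IL-4, and 14.09 untreated against 14.23 in WT. Its other probe sets gave -1.23 and 0.20 with IL-4, but -0.15 and -0.17 untreated. Xbp1, the transcription factor that IRE1 activates by splicing, read 12.24 against 12.78 with IL-4 and 12.70 against 12.72 untreated. These arrays do not separate spliced from unspliced Xbp1.

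Creld2, Atf6 and Hyou1 had the largest untreated differences of the branch by their brightest probe sets. Creld2, an ER stress-induced folding factor, read 10.12 on the IL-4-exposed array labelled Dap12-KO against 11.35 in WT with IL-4, and 10.30 untreated against 11.08 in WT. Hyou1, the HSP110 of the ER, read 10.46 against 11.84 with IL-4 and 10.77 against 11.39 untreated, while a dimmer probe set of it gave 0.94 and -0.27. The sensor Atf6 read 9.38 against 10.27 with IL-4 and 9.88 against 10.57 untreated. Its next brightest probe set gave -0.86 with IL-4 but only -0.13 untreated, and a dimmer one -1.75 and -0.69. By their brightest probe sets these 3 genes were thus lower on both arrays labelled Dap12-KO, by -0.61 to -0.78 untreated. The lectin chaperones Calr and Canx were at -0.32 and 0.06 untreated, the HSP90 of the ER Hsp90b1 at 0.09, and the disulfide isomerases Pdia3, Pdia4 and Pdia6 at 0.16, 0.15 and -0.25. Manf, a secreted stress protein, was at -0.33, the cochaperones Dnajb9, Dnajc3 and Sdf2l1 at 0.19, -0.13 and 0.07, and the degradation factors Herpud1 and Edem1 at -0.10 and 0.25.

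With IL-4, 16 of the 17 ER genes were lower on the array labelled Dap12-KO than in WT, but their median of -0.63 lay close to that of all genes at or above the 75th percentile of level, -0.62. At 2-fold 3 were lower, namely Dnajc3 (-1.56), Hyou1 (-1.38) and Creld2 (-1.23). Dnajc3, an ER cochaperone, read 9.19 on the IL-4-exposed array labelled Dap12-KO against 10.75 in WT with IL-4, and 10.47 untreated against 10.60 in WT. Its low value was thus on 1 array. After cyclic loess the ER median was -0.06, with 10 genes below 0 and 7 at or above it, and 0 of all 38 members were lower at 2-fold, where 5.33% of all genes were. The cytosolic median stayed under the ER median in both genotype comparisons under all 4 scalings tried. That gap was -0.37 untreated and -0.22 with IL-4 as deposited, and between -0.37 and -0.39 untreated and between -0.21 and -0.29 with IL-4 over the 4 scalings. With the median over probe sets in place of the brightest, the gap was -0.37 untreated but -0.06 with IL-4.

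The matches to an element named for ER genes are shown aligned. The ER stress element was searched as CCAAT, 9 bases of any kind and CCACG, on both strands, and each line gives the match in the direction of the element with its fixed ends in capitals. A pair of the lines is from Hsp90b1, whose matches run in opposite directions. In GRCm38.p6 the Hspa5 match is at chr2:34772025-34772043, that of Calr at chr8:84847075-84847093, those of Hsp90b1 at chr10:86705638-86705656 and chr10:86705533-86705551, and that of Canx at chr11:50325800-50325818. Pdia6 has it at chr12:17266491-17266509, Dnajc3 at chr14:118937827-118937845 and Creld2 at chr15:88819520-88819538. The gene strand is plus for Hspa5, Pdia6, Dnajc3 and Creld2 and minus for Calr, Hsp90b1 and Canx, and the matches of Calr, Creld2 and the second of Hsp90b1 run against the gene.
Hspa5: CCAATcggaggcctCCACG
Calr: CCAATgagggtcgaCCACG
Hsp90b1: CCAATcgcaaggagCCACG
Hsp90b1: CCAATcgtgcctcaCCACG
Canx: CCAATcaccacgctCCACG
Pdia6: CCAATgaaaggcggCCACG
Dnajc3: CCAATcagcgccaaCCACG
Creld2: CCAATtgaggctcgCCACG

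This element occurred in 7 of 14 ER genes with a promoter, in 0 of 18 other members, and in 0.137% of all genes, or 37 in number. The Hspa5 promoter, at chr2:34771840-34772089, plus strand, is given whole because Hspa5 is the usual readout of the pathway. Its match begins at position -65, counted from the start.
Hspa5: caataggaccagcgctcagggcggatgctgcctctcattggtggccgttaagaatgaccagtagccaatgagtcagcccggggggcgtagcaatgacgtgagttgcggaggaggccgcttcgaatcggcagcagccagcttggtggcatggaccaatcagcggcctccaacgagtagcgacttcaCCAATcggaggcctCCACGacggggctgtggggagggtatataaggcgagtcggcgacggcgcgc

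The 7 genes with the element, Hspa5, Calr, Hsp90b1, Canx, Pdia6, Dnajc3 and Creld2, had untreated differences from -0.78 to 0.09 with a median of -0.14. None of the 7 was at 2-fold untreated. With IL-4, 7 of 7 were below WT with a median of -0.64, and 2 were lower at 2-fold, Dnajc3 and Creld2. Of all genes 65.8% were below WT in that comparison and 17.6% were lower at 2-fold. Among genes at or above the 75th percentile of level 86.3% were below WT there and 23.2% lower at 2-fold, with a median of -0.62. After cyclic loess Canx was at 0 and Pdia6 at 0.08, while the others stayed below WT and none was lower at 2-fold.

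In the ATF4 branch 1 gene stood out. Asns, the asparagine synthetase (chr6:7675165-7693209), read 10.82 on the IL-4-exposed array labelled Dap12-KO against 12.31 in WT with IL-4. Untreated it read 10.40 on the array labelled Dap12-KO against 12.18 in WT. It was 2.81-fold lower with IL-4 and 3.43-fold lower untreated, the largest untreated difference among the 38 members, and its second probe set gave -1.24 and -1.79. After cyclic loess the values were -0.86 and -1.68. Both WT arrays again lay above both arrays labelled Dap12-KO.

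The other members of the branch stayed within 2-fold. Chac1, a glutathione-degrading enzyme and ATF4 target, read 8.90 on the IL-4-exposed array labelled Dap12-KO against 9.81 in WT with IL-4, and 8.03 untreated against 8.90 in WT. Trib3, a pseudokinase that ATF4 and CHOP induce, read 8.84 against 9.76 with IL-4 and 8.70 against 8.95 untreated. Ddit3 (CHOP) read 9.46 against 9.69 and 9.68 against 9.62, and Ppp1r15a (GADD34), which restores translation, 8.91 against 9.10 and 9.27 against 9.07. By their brightest probe sets those last 2 targets were thus nearly level as deposited, though with IL-4 they stood at 0.50 and 0.53 after cyclic loess. The other Ddit3 probe set was higher on the arrays labelled Dap12-KO, by 0.22 with IL-4 and 0.66 untreated. Atf4 itself read 12.53 against 12.96 with IL-4 and 12.57 against 12.77 untreated. A dim Atf4 probe set read higher on the IL-4-exposed array labelled Dap12-KO, at 9.29 against 7.45 in WT with IL-4, and a bright one read lower there, at 11.95 against 12.94 (-0.99). The branch median was -0.22 untreated and -0.67 with IL-4, and -0.14 and -0.05 after cyclic loess, and ATF4 is known to be controlled largely at translation, which these arrays do not read.

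Several further genes of the integrated stress response were also lower. Of 23 listed genes beyond the members 21 passed the floor, and without IL-4 the array labelled Dap12-KO had 5 of 21 lower at 2-fold and 0 higher, with a median of -0.43, where 3.41% and 3.12% of all genes were and the median of all genes was 0.03. The cystine importer Slc7a11 read 7.41 on the IL-4-exposed array labelled Dap12-KO against 9.57 in WT with IL-4, and 7.88 untreated against 10.42 in WT, a 5.84-fold untreated difference. The alanine transaminase Gpt2 read 9.37 against 11.38 with IL-4 and 8.95 against 11.29 untreated. The serine synthesis enzyme Psat1 read 11.49 against 13.19 with IL-4 and 10.68 against 12.73 untreated. The mitochondrial folate enzymes Mthfd2 and Shmt2 were at -1.26 and -1.05 untreated. After cyclic loess Slc7a11, Gpt2 and Psat1 were still past 2-fold in both treatments, at -1.45, -1.30 and -1.11 with IL-4 and -2.45, -2.24 and -1.96 untreated, and Shmt2 was not past it untreated, at -0.95. Phgdh, the serine synthesis enzyme that acts before Psat1, was at 0.45 with IL-4 (1.13 after cyclic loess) and at -0.60 untreated, and Slc3a2, the partner chain of Slc7a11, at -0.72 and -0.43.

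The eIF2 kinases Eif2ak1, Eif2ak2 and Eif2ak4, which switch the pathway on, were at 0.00, -0.21 and 0.14 untreated. With IL-4 they were at -0.01, -0.88 and -1.35. Eif2ak3 (PERK), the eIF2 kinase of the ER, was listed with the other ER genes. It was at 0.13 untreated and at -1.02 with IL-4, or -0.29 after cyclic loess. The cysteine enzyme Cth passed the floor through the WT IL-4 array alone, so no size is given for it. With IL-4 and Cth left aside, 5 genes were lower at 2-fold between genotypes, Slc7a11, Gpt2, Psat1, Eif2ak4 and Shmt2, and Stc2 was higher, at 1.21, where 17.6% and 10.9% of all genes were.

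**Figure D4:**
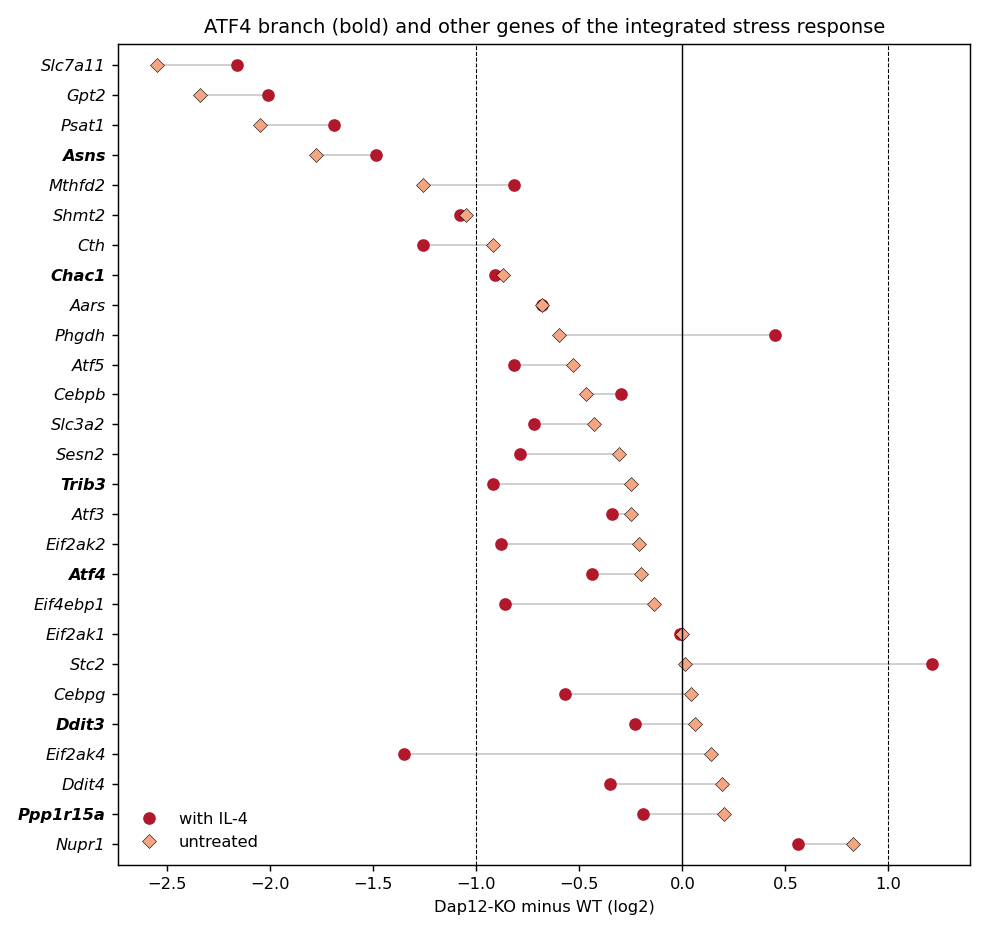
Log2 difference of the array labelled Dap12-KO minus WT, with IL-4 (circles) and untreated (diamonds), for the 6 genes of the ATF4 branch (bold) and 21 further genes of the integrated stress response, sorted by the untreated difference, with dashed lines at 2-fold. Slc7a11, Gpt2, Psat1 and Asns lie past 2-fold lower in both treatments, while Ddit3, Ppp1r15a and the 3 kinases lie between -0.21 and 0.20 untreated.

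The ATF4 element was searched as TGATGNAA on both strands. It matched in Asns, Chac1 and Trib3, which is 3 of 6 genes of the branch, in Herpud1 among the ER genes, and in 4.51% of all genes. The whole stretch is given for Asns (chr6:7693210-7693459, minus strand), where the element overlaps the 2-unit heat shock match so that the capitals are their union, and the matches of Chac1, Trib3 and Herpud1 follow with 8 flanking bases on each side, in the direction of the gene. They lie at chr2:119351049-119351056 (plus strand) for Chac1, at chr2:152344039-152344046 (minus strand), past the start, for Trib3 and at chr8:94386317-94386324 (plus strand) for Herpud1.
Asns: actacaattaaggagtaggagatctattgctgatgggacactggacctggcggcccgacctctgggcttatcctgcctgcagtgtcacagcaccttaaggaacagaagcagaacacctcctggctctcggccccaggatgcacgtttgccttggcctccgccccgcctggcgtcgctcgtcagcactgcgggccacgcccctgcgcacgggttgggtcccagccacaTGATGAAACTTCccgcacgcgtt
Chac1: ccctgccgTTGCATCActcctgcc
Trib3: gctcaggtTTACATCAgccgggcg
Herpud1: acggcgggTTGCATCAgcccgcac

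The 4 genes with this element were lower on both arrays labelled Dap12-KO, with medians of -0.56 untreated and -0.92 with IL-4, except that after cyclic loess Herpud1 was at 0.00 and 0.06. All genes had medians of 0.03 and -0.39, and genes at or above the 75th percentile of level -0.05 and -0.62. By their brightest probe sets these 4 genes were also above their untreated arrays with IL-4 in both genotypes. Their median was 0.28 on the arrays labelled Dap12-KO and 0.68 in WT, where all genes had -0.40 and -0.03. Herpud1 was at only 0.04 on the arrays labelled Dap12-KO, and its other probe set gave -0.90 there. The second Trib3 probe set gave 0.03 there. These directions describe 4 genes, of which Asns alone passed 2-fold.

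In the chaperone lists beyond the members the untreated counts at 2-fold lay near the background of 3.41%. Of 37 other cytosolic and mitochondrial chaperones above the floor, 28 were below WT on the untreated array labelled Dap12-KO, with a median of -0.24, and 1 was lower at 2-fold, or 2.7%. Of all genes 47.3% were below WT, and 54.1% of those at or above the 75th percentile of level. That gene was the HSP90 cochaperone Fkbp5, at 8.05 against 9.24, and the mitochondrial exchange factor Grpel1 and the chaperonin subunit Cct3 came next at -0.81 and -0.77. Of 32 other ER genes, 23 were below WT with a median of -0.17, and 1 was lower at 2-fold, or 3.12%, Wfs1, an ER membrane protein, at 12.25 against 13.44. The degradation cofactor Nploc4 and the translocon-associated Ssr1 were at -0.74 and -0.60. With IL-4, 34 of 37 were below WT with a median of -0.75 and 5 lower at 2-fold, and 30 of 32 with a median of -0.66 and 4 lower, which is 13.5% and 12.5% against 17.6% of all genes. After cyclic loess these medians were -0.15 and -0.02. As deposited, 65.8% of all genes and 86.3% of those at or above the 75th percentile of level were below WT with IL-4. Cryab, a small heat shock protein counted among those 5 lower genes, passed the floor through the WT arrays alone, so no size is given for it. Of the rest, the genes furthest apart were the mitochondrial protease subunit Clpx (-1.51), the HSP70 relative Hspa13 (-1.33) and Nploc4 (-1.32). Between IL-4 and untreated arrays, 5 of 37 and 4 of 32 were lower at 2-fold on the arrays labelled Dap12-KO and 0 in WT. That is 13.5% and 12.5% against 17.6% of all genes on the arrays labelled Dap12-KO, and 0 against 1.25% in WT. Hspa4l, an HSP110 relative, was 4.30-fold lower on the arrays labelled Dap12-KO, where it read 6.46 with IL-4, near the floor of 6.39.

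Pdia4 was the only member past 2-fold between IL-4 and untreated arrays in both genotypes. This ER disulfide isomerase (chr6:47796141-47813512) read 9.87 with IL-4 against 8.53 untreated on the arrays labelled Dap12-KO. In WT it read 9.72 with IL-4 against 8.38 untreated. Both IL-4 arrays were above both untreated arrays, by 2.52-fold and 2.53-fold. It was the only member higher at 2-fold in WT, where 1.21% of all genes were higher and 1.25% lower, and its only other probe set lay below the floor on all 4 arrays. After cyclic loess the difference in WT was 1.38, and on the arrays labelled Dap12-KO it was larger. The promoter of Pdia4, at chr6:47813513-47813762, minus strand, is shown in lower case throughout, since none of the 4 motif forms matched before the start.
Pdia4: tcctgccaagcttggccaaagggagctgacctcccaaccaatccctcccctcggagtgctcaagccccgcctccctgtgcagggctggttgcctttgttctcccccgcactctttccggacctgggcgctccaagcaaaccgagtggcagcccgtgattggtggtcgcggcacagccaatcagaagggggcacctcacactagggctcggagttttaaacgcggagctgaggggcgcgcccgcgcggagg

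The remaining ER genes in WT ranged from -0.46 for Edem1, which feeds misfolded glycoproteins to degradation, to 0.56 for Herpud1. The ER median in WT was 0.10 where all genes had -0.03, with 13 of 17 above 0. On the arrays labelled Dap12-KO it was -0.46, with 2 of 17 above 0, where all genes had -0.40, and 0.04 after cyclic loess. Edem1 read 10.37 with IL-4 against 11.60 untreated on the arrays labelled Dap12-KO and 10.88 against 11.34 in WT. Its second probe set gave -0.87 and -0.03.

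Inducible HSP70 and Dnajb4 read lower with IL-4 in both genotypes. Dnajb4 differed by -1.16 on the arrays labelled Dap12-KO and by -0.92 in WT, Hspa1b by -0.91 and -0.90, and Hspa1a by -1.06 and -0.77. After cyclic loess these were -0.51 and -0.88, -0.27 and -0.86, and -0.47 and -0.73, so the direction held while the sizes on the arrays labelled Dap12-KO shrank. All 3 Hspa1b probe sets were lower, and the dim Dnajb4 probe set was not on the arrays labelled Dap12-KO, at 0.75. Hsph1 was higher there, at 0.63 on the arrays labelled Dap12-KO (1.16 after cyclic loess) and 0.13 in WT. In WT the 9 cytosolic genes besides these 3 lay between -0.22 and 0.27.

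In the ATF4 branch 6 of 6 genes were above untreated in WT with IL-4, led by Chac1 at 0.91 and Trib3 at 0.80, and 0 reached 2-fold. Below untreated in that comparison were 56.3% of all genes. On the arrays labelled Dap12-KO, Chac1 was at 0.87, Asns at 0.42 and Trib3 at 0.14, with 3 of 6 above 0, where 66.1% of all genes were below 0. After cyclic loess 6 of 6 were above 0 there too, with a median of 0.63 where all genes had 0.09. Among the further genes of the integrated stress response the median was -0.05 on the arrays labelled Dap12-KO and 0.07 in WT. There, 0 of 21 passed 2-fold in WT in either direction, and 2 were higher and 1 lower on the arrays labelled Dap12-KO.

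Over all 38 members, 1 was higher and 4 lower at 2-fold with IL-4 on the arrays labelled Dap12-KO, where 8.04% and 17.6% of all genes were. After cyclic loess 4 were higher and 0 lower, against 9.79% and 5.91% of all genes. These shares lie near or under the background, and in WT 1 of 38 higher is 2.63%.

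**Figure D5:**
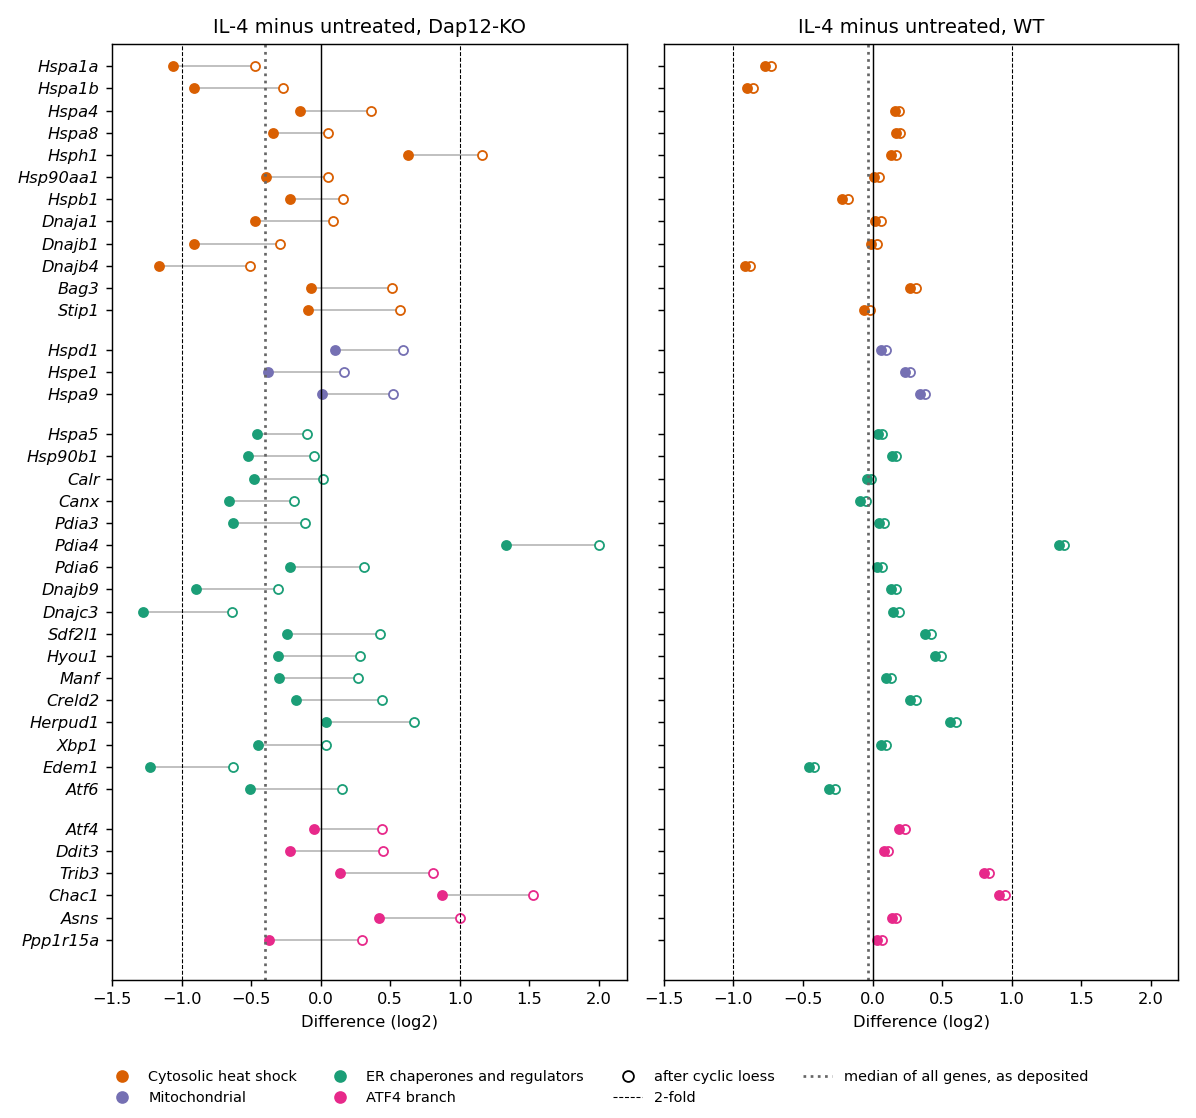
Log2 difference of IL-4 minus untreated for each of the 38 genes, on the arrays labelled Dap12-KO at left and in WT at right, with filled points as deposited, open points after cyclic loess, dashed lines at 2-fold and the dotted line at the median of all genes. Pdia4 lies past 2-fold higher in both, Dnajb4, Hspa1a and Hspa1b lie to the left of 0 in both, and the left panel shifts to the right with cyclic loess.

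A limma fit took the IL-4 difference across genotypes, with genotype as a block and 1 residual degree of freedom, and its p-values cover only the spread among 4 arrays, which may be technical. The fit pooled the variance over all genes, so every member has the same SE, which is not the spread of that gene. The residual is the difference of both IL-4 responses, so it takes in the narrower IL-4 array labelled Dap12-KO. At an adjusted p under 0.05 it called 0 of 38 members in either direction, where 0.54% of all genes were called higher and 1.1% lower. At an unadjusted limma p under 0.05 there were 6 of 38, where 1246 of all 12767 genes were. The 6 were Pdia4, Chac1, Dnajb4, Hspa1a, Hspa1b and Edem1. Pdia4 came nearest, with a log2 difference of 1.34 (SE 0.42, limma adjusted p = 0.078, higher in 2 of 2 genotypes). Dnajb4 had -1.04 (SE 0.42, limma adjusted p = 0.288, lower in 2 of 2 genotypes). After cyclic loess limma called no gene of the 12767, and the smallest adjusted p of a member was 0.361. Over 7 alternatives that smallest value ran from 0.157 to 0.895. There, 1 to 6 members had an unadjusted limma p under 0.05, where 464 to 1140 of all genes had.

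The difference of both IL-4 responses, arrays labelled Dap12-KO minus WT, was lower at 2-fold for 2 of 38 members and higher for 0, where 14.8% and 8.15% of all genes were. The 2 were Dnajc3, which restrains eIF2 kinases (-1.43), and Dnajb9, an ER HSP40 (-1.02). Over the members the median was -0.40 where all genes had -0.36, and 0.13 against 0.09 after cyclic loess. The ER branch was at -0.53, the cytosolic branch at -0.30, the mitochondrial at -0.32 and the ATF4 branch at -0.27, against which the median of genes at or above the 75th percentile of level was -0.55.

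Markers of other cells were read beside the genotype differences. The summed linear level of 8 macrophage markers was 73120 on the IL-4-exposed array labelled Dap12-KO and 85310 in WT with IL-4, and without IL-4 it was 107900 on the array labelled Dap12-KO and 97610 in WT. For 5 plasma cell markers, a cell type rich in ER chaperones, the sums were 1637 and 3968 with IL-4 and 3597 and 5112 untreated. Jchain and Tnfrsf17 were below the floor on all 4 arrays, and the sums came mostly from Sdc1, Prdm1 and Mzb1. For 6 measured neutrophil markers they were 995.1 and 1473 with IL-4 and 1345 and 1998 untreated. These markers did not move together: S100a8 and Mmp8 were lower on both arrays labelled Dap12-KO. With IL-4 the others read higher there than in WT, Camp at 8.20 against 5.89 and Ngp at 6.53 against 5.57. Ltf read 6.22 against 5.34 and S100a9 5.97 against 5.63. On the IL-4-exposed array labelled Dap12-KO 4 of them were above the floor, and 2 in WT with IL-4. Other markers stood higher on the untreated array labelled Dap12-KO: 5 mast cell markers summed to 575.4 and 458.3 with IL-4 and 1035 and 511 untreated, and 4 measured B cell markers to 1122 and 1199 with IL-4 and 1784 and 975.4 untreated. The part of these shifts in the results was not tested.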

How the data were processed

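Total RNA of 4 samples was measured on 1-colour Affymetrix arrays after 2 amplification cycles, per the labels' protocols. The deposited log2 probe set values are RMA values that the authors computed, and the submitters' processing notes name no release of the tool. There were 45101 probe sets: 64 controls, 9160 without a gene, 932 with several genes and 34945 with 1. Names came from GEO's platform annotation, and 34741 were updated by Entrez ID to RefSeq GRCm38.p6. A gene was read by its probe set with the highest mean, and entered comparisons where its highest value reached the median of all values, 6.39. The 90 probe sets of the members were also read singly.

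Samples were grouped by title. Log2 differences were computed for 4 pairs of arrays and for the difference of both IL-4 responses, and IL-4 was fitted with limma 3.58.1 (R 4.3.3) with Benjamini-Hochberg adjustment, tested on simulated data first. Genotype was not tested, because the labels do not tell whether arrays share animals. Python 3.11.15, numpy 2.4.6, pandas 2.3.3 and matplotlib 3.10.9 did the rest. The members and lists were chosen with earlier results of these data known. Values on all arrays were printed for up to 5 members per branch with the largest difference, for regulators, and for probe sets that disagreed by over 1 log2 unit. The others were summarised. Of each further list up to 3 genes with the largest untreated genotype difference were named, and Mthfd2, Shmt2, Stc2, Cth, Phgdh, Slc3a2, Clpx, Cryab, Hspa13, Hspa4l and the kinases were named after their values were seen. Depth and detection calls are unknown. Alternatives were leaving out the floor, raising it to the 75th percentile, cyclic loess (3 iterations), quantile normalization, median centring, the median over probe sets, thresholds of 3-fold and 1.5-fold and, for limma, an intensity trend or no genotype term.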

Additional observations from a re-analysis of the deposited data

Results flagged for a closer look

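Dnajb9 and Dnajc3 are given again because IL-4 differed in opposite directions on the arrays of the 2 genotypes, by 2-fold or more between them. Dnajc3 differed by -1.28 on the arrays labelled Dap12-KO and by 0.15 in WT, a difference of -1.43, and Dnajb9 by -0.90 and 0.13, a difference of -1.02. Neither difference was tested, since each value rests on 1 array per group. After cyclic loess the differences were -0.82 for Dnajc3 and -0.48 for Dnajb9. The other 3 Dnajc3 probe sets above the floor gave -0.93, -0.80 and -0.37. In all 20 of 38 members had opposite signs in both genotypes as deposited, and 10 after cyclic loess. The share of all genes with opposite signs was not counted, so these counts have no background. As deposited, IL-4 differences were below 0 for 66.1% of all genes on the arrays labelled Dap12-KO and for 56.3% in WT.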

How the results depend on the processing

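Leaving out the level floor or raising it to the 75th percentile left the member medians and counts within the limits set here (1.5-fold for a value, 1.5 times for a count). Scaling mattered for comparisons with the narrower IL-4 array labelled Dap12-KO. Between genotypes with IL-4, 8 members were lower at 2-fold as deposited, against 0 after cyclic loess, 1 after quantile normalization and 15 after median centring. Of all genes 17.6%, 5.33%, 7.9% and 24.1% were lower there, in the same order. The ATF4 median there was -0.05 and -0.06 after cyclic loess and quantile normalization, and the ER median -0.04 after quantile normalization. For IL-4 on the arrays labelled Dap12-KO, counts higher and lower were 4 and 0 after cyclic loess and 3 and 0 after quantile normalization, and 7 were lower after median centring. Of all genes 9.79% and 5.91% were higher and lower after cyclic loess, and 11.8% and 8.73% after quantile normalization. After median centring 22.4% of all genes were lower. For the difference of responses, lower counts were 0 after either of the first 2 scalings, where 5.58% and 7.9% of all genes were lower. Threshold counts at 3-fold and 1.5-fold were 2 and 12 lower between genotypes untreated, 0 and 24 lower with IL-4, 0 and 3 higher for IL-4 in WT with 3 lower at 1.5-fold, and 0 and 3 higher and 0 and 9 lower for IL-4 on the arrays labelled Dap12-KO. For the difference of responses 0 and 10 were lower. Shares of all genes at 3-fold and 1.5-fold were not counted, so these counts have no background. Between genotypes with IL-4, the median of genes at or above the 75th percentile of level, -0.62, was itself past 1.5-fold lower. With the median over probe sets 0 members were higher with IL-4 in WT (Pdia4 at 0.71) and 2 were higher in the difference of responses. No share of all genes was counted for the median over probe sets. That setting turned Dnajb4 (0.22) and Hyou1 (0.94) between genotypes with IL-4, and Dnajb4 (0.32) for IL-4 on the arrays labelled Dap12-KO, since dim probe sets go the other way. The limma count of members stayed at 0 under 7 alternatives. The gap between cytosolic and ER medians between genotypes with IL-4 was -0.06 with the median over probe sets, against -0.22. Causes were not tested. Depth is unknown, and 1 array per group gives no error for any difference. The limma fit pairs the arrays within genotype, and without that term it called 7 genes higher and 0 lower, against 69 and 141 with it.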
